A study of Mus musculus with 9 samples.

Results

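The genes described here encode variant, linker and core histones: H3f3a and H3f3b (histone H3.3), H2afz and H2afv (H2A.Z), H2afx (H2A.X), H2afj (H2A.J), H2afy (macroH2A1), Hist1h1c (linker histone H1.2), H1f0 (linker histone H1.0) and Hist1h2bc (a core H2B). They are 10 of the 52550 gene identifiers in a deposited table of read counts and were picked by name, with earlier results of these libraries in view, so their levels and fold changes below are a description. RNA was sequenced from mouse haematopoietic stem cells, the marrow cells that give rise to all blood lineages, in 3 groups of 3 libraries. The old KO group came from mice aged 22 to 24 months with the genotype B6N.129S6-Sphk2tm1Rlp/J, which the labels call Sphk2 cKO. No Cre driver is named. Sphk2 encodes sphingosine kinase 2, which phosphorylates sphingosine. The old WT group came from wild-type mice of the same ages and the young WT group from wild-type mice aged 2 months, with no strain given for either. Every library started from 1000 marrow cells sorted as Lin-, Sca1+, c-Kit+, CD48- and CD150+. The labels call the libraries of a type technical replicates and name no mouse or litter, so the p-values measure only the spread between these libraries.

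Most histone protein is made in S phase from clustered genes whose mRNAs end in a stem-loop in place of a poly(A) tail. Many variant histones are also made outside S phase, from genes with introns or poly(A) signals, and replace the canonical ones at particular places. H3.3 enters active genes through HIRA and heterochromatin through DAXX and ATRX. H2A.Z is put at promoters and enhancers by the SRCAP and p400 complexes, H2A.X is phosphorylated beside DNA breaks, macroH2A1 marks silent chromatin, and H1 proteins bind the DNA that enters and leaves the nucleosome. H1.0 is known for accumulating in cells that have stopped dividing.

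The share of sequence in genes set the groups apart. Counts in genes were 11284847 to 17544945 in old KO, 3145167 to 5115003 in old WT and 28088637 to 74021822 in young WT libraries. Counts outside genes made up 45.0% to 61.9% of all counts in old KO, 80.8% to 87.7% in old WT and 6.51% to 12.5% in young WT. Over the exons of olfactory receptor genes, which are silent in blood, there were 5.55 to 7.29 reads per kb in old KO, 5.41 to 10.4 in old WT and 1.09 to 1.43 in young WT libraries. This density served as the background. Above it was, in a given library, a gene of 20 counts or more that also exceeded 5-fold the background over its exons. Between 3493 and 4853 genes were above background in old KO libraries, 1161 to 1620 in old WT and 8133 to 8983 in young WT. Of 12 stem cell markers, 8 to 11 were above background in old KO, 1 to 2 in old WT and 9 to 11 in young WT libraries, so the labelled cell type could hardly be checked in old WT. Sphk2 had 12, 23 and 8 counts in old KO, 20, 1 and 35 in old WT and 1684, 88 and 576 in young WT libraries. It was too low in old WT to check the knockout label against that group.

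Levels are given as counts per 1000000 counts in genes (CPM), and as CPM per kb of exon where genes are compared with each other. Fold changes, with their standard error (SE), are on the log2 scale and come from edgeR's quasi-likelihood test on counts scaled by these totals. A gene was called where its Benjamini-Hochberg adjusted p over all 32582 genes tested was under 0.05. The usual TMM scaling centres on the typical tested gene, which in the old libraries was at background. It moved the median fold change by -3.90 in old WT against young WT, by 1.88 in old KO against old WT and by -2.01 in old KO against young WT, and for the 10 genes it is given beside the total-count values where it changes a call or a direction.

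The 10 genes held 0.505%, 0.492% and 0.459% of the counts in genes in the old KO libraries, 0.131%, 0.168% and 0.132% in old WT and 0.977%, 0.917% and 0.906% in young WT. The 3 groups did not overlap: the share was lowest in old WT, and old KO lay between it and young WT. Above background were 10, 8 and 10 of the 10 genes in the old KO libraries, 4, 5 and 4 in old WT and all 10 in each young WT library. In bulk libraries, fewer cells of a type and less RNA per cell cannot be told apart. The share of counts outside genes moved with the groups in the reverse order, and its part in these differences was not tested.

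**Figure D1:**
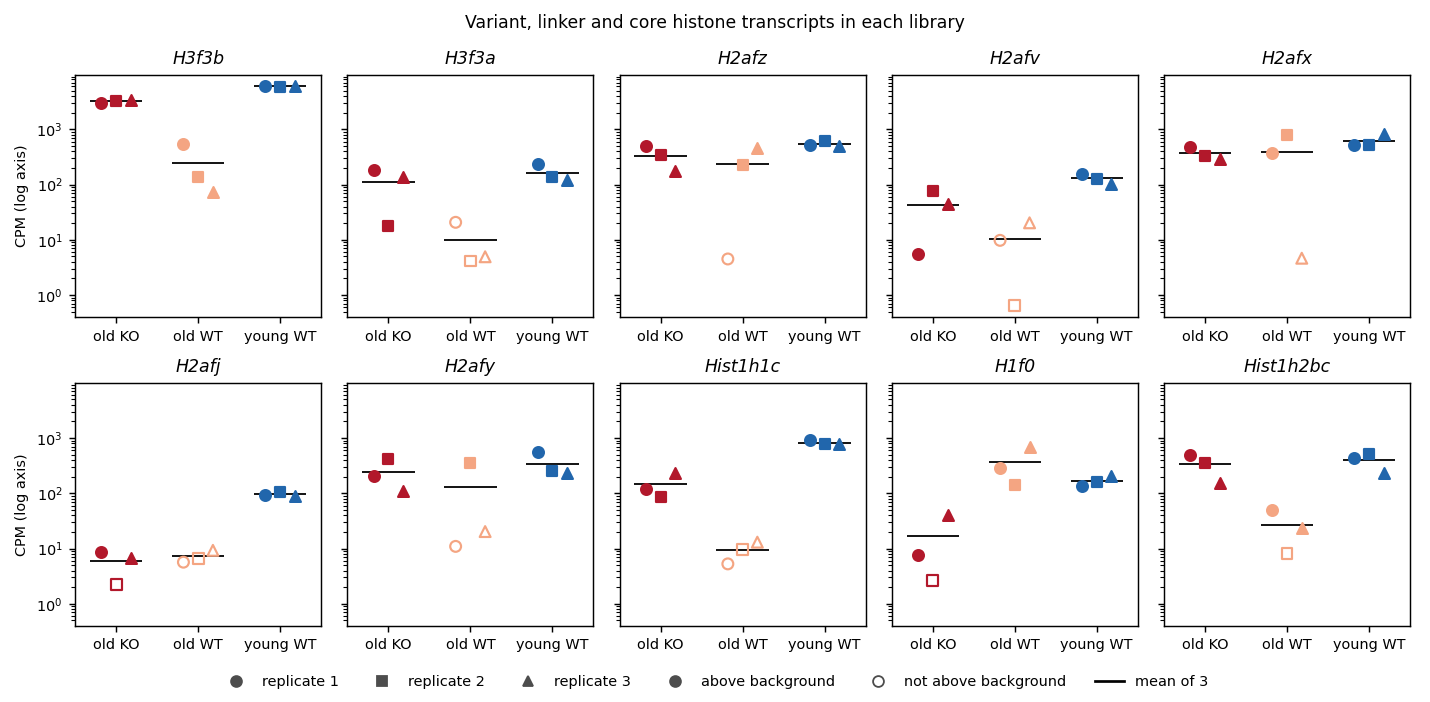
CPM of the 10 histone genes in each of the 9 libraries, on a log axis shared by all panels. Symbols mark the replicate numbers of the labels, filled symbols are above background, open symbols are not, and black bars are means of 3 libraries. In old WT, H3f3b was above background in all 3 libraries and H3f3a, H2afv, H2afj and Hist1h1c in none.

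H3f3b was the gene with the highest level per kb in old KO and in young WT. It had 3032, 3288 and 3403 CPM in the old KO libraries, 543, 137 and 73.1 CPM in old WT and 6206, 5952 and 5999 CPM in young WT. The groups did not overlap, the young libraries lay within a few percent of one another, and the old WT libraries spread widely, with replicate 1 the highest. Even the lowest old WT library held 252 counts of H3f3b. In old WT against young WT the log2 fold change of H3f3b was -4.59 ± 0.81 (edgeR adjusted p = 0.000697), and -5.85 without old WT replicate 1. It was the gene of the 10 still called after the background was subtracted, at -4.16.

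H3f3a, the second gene for the same protein, was much lower. It had 185, 17.5 and 137 CPM in old KO, 20.7, 4.13 and 4.93 CPM in old WT and 236, 137 and 121 CPM in young WT. No old WT library was above background for it, replicate 2 stood low among the old KO libraries, and old KO and old WT overlapped. Its log2 fold change in old WT against young WT was -4.05 ± 1.26 (edgeR adjusted p = 0.00875), and -5.18 without old WT replicate 1.

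Because both genes make H3.3, their ratio within a library compares the counts assigned to each, free of scaling between libraries. Per kb of exon, H3f3b made up 95.1%, 99.5% and 96.7% of the pair in old KO, 96.9%, 97.5% and 94.6% in old WT and 96.9%, 98.1% and 98.3% in young WT. The 3 groups overlapped, and H3f3b held most of the pair's assigned counts per kb in every library. In old WT the share is uncertain, because H3f3a had 106, 13 and 17 counts there and was not above background. Reads can be told apart between these genes because their coding sequences differ. The coding regions are both 411 bases long and share 316 of them, or 76.9%, with no identical run over 23 bases. All 83 codons that differ encode the same amino acid. The opening 90 coding bases of the GENCODE M21 transcripts H3f3a-205 and H3f3b-201 are shown so that this divergence can be seen, with capitals at the 20 bases that differ.
H3f3a: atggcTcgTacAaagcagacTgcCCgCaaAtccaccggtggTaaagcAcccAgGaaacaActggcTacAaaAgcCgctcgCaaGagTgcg
H3f3b: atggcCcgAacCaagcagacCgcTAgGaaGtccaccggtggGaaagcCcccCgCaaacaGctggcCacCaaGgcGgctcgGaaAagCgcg

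H3f3a is less secure than H3f3b for another reason. In the annotation, 23 other genes, 22 of them pseudogenes, match its transcripts at 95% identity or more over at least 150 bases, and 3 genes match H3f3b. Reads assigned to the 23 copies made up 30.1%, 43.4% and 14.8% of the reads of H3f3a and its copies in old KO, 56.7%, 93.3% and 93.1% in old WT and 7.77%, 16% and 5.27% in young WT. Many of these reads were of Smpd4, a protein-coding gene that matches over 173 bases. It held 389, 83 and 90 reads in old KO, 58, 63 and 120 in old WT and 675, 482 and 21 in young WT. For H3f3b the copies took at most 0.0552% in old KO, 3.45% in old WT and 0.0580% in young WT. How the authors' counting treated reads that match several genes is not given in the sources used here, so the level of H3f3a is uncertain.

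The promoter of H3f3b is shown because its gene led the 10 per kb in every old KO and young WT library. The window is chr11:116024455-116024754 on the minus strand of GRCm38.p6, 250 bases before to 50 after the start in RefSeq, written 5′ to 3′. Capitals mark the CCAAT box (letters CCAAT), the TATA box (letters TATAAA) and the octamer (letters ATGCAAAT), searched on both strands. The octamer is the motif that binds OCT factors and is known, among other genes, from histone H2B promoters.
H3f3b promoter: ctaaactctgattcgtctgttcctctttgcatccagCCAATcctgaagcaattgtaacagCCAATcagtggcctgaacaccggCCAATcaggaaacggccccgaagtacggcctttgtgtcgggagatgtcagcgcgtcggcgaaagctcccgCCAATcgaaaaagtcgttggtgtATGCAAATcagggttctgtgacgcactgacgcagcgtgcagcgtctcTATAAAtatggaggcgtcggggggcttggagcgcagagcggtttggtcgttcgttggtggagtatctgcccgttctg

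This window holds CCAAT at 4 places, TATAAA once and the octamer once, and none of the matches overlap. Of 32851 RefSeq mouse promoter windows of the same length, 37.4% hold CCAAT, 13.6% TATAAA and 1.74% the octamer. RefSeq promoters were found for 8 of the 10 genes, and the octamer and TATAAA occurred in H3f3b alone among those 8. A match describes these letters and not a bound site.

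The H2A.Z genes were less even. H2afz had 492, 341 and 173 CPM in old KO, 4.50, 230 and 469 CPM in old WT and 515, 614 and 501 CPM in young WT. Old WT replicate 1 was at background with 23 counts, while old WT replicate 3 came close to the young libraries, so old WT spanned a wider range than either other group. Its log2 fold change in old WT against young WT was -1.21 ± 1.12 and was not called (edgeR adjusted p = 0.349), and under TMM it was -5.40 and called.

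H2afv had 5.42, 77.7 and 44.8 CPM in old KO, 9.78, 0.636 and 20.3 CPM in old WT and 157, 128 and 103 CPM in young WT. All young libraries lay above all old ones, no old WT library was above background, and old KO replicate 1 was inside the old WT range. Its log2 fold change in old WT against young WT was -3.66 ± 1.37 (edgeR adjusted p = 0.0246). The call was lost without old WT replicate 1 (-3.63, edgeR adjusted p = 0.0617) or replicate 2 (-3.11, edgeR adjusted p = 0.0665).

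The ratio of H2afz to H2afv per kb was 83.4, 4.04 and 3.55 in old KO, 0.423, 333 and 21.2 in old WT and 3.02, 4.42 and 4.45 in young WT. The young libraries were alike, old KO replicates 2 and 3 lay within their range, and the old WT values rest on counts of 2 to 70 for H2afv. The 2 proteins differ little: their coding regions share 306 of 387 bases, or 79.1%, and of 74 codons that differ 71 encode the same amino acid. The opening 90 coding bases of H2afz-201 and H2afv-202 are given with capitals at the 19 bases that differ.
H2afz: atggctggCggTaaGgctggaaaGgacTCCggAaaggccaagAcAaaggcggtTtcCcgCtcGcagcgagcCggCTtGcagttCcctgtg
H2afv: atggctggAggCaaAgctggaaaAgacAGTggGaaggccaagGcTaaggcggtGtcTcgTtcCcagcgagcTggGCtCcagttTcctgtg

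As with H3f3a, H2afz has near copies: 6 genes match its transcripts by the same criterion, among them Tmcc1, a protein-coding gene with its own exons, and Gm8203, a pseudogene. The reads assigned to these 6 genes were 3.85%, 3.77% and 6.01% of the summed reads in old KO. Their share was 94.8%, 53.6% and 23.1% in old WT and 0.630%, 0.657% and 7.40% in young WT. Most of these reads were of Tmcc1 in every library. It held 249, 127 and 191 reads in old KO, 384, 828 and 463 in old WT and 236, 105 and 1241 in young WT. Whether any of them came from H2afz transcripts was not tested. H2afv has no near copies.

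H2afx, whose protein is phosphorylated by ATM and related kinases at DNA breaks, was above background in 2 of 3 old WT libraries. It had 485, 332 and 291 CPM in old KO, 375, 781 and 4.64 CPM in old WT and 518, 528 and 813 CPM in young WT. Old WT replicates 1 and 2 were at the level of the other groups, and replicate 3 held 16 counts. The log2 fold change in old WT against young WT was -0.68 ± 1.12 and was not called (edgeR adjusted p = 0.605), and under TMM it was -4.46 and called (edgeR adjusted p = 0.0265). Between old KO and old WT it was -0.07 ± 1.12 (edgeR adjusted p = 0.961), and it turned to 0.96 without old WT replicate 2 and to 1.59 under TMM.

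H2afj, a variant known for accumulating in senescent cells with DNA damage, followed another course. It had 8.77, 2.22 and 6.78 CPM in old KO, 5.67, 6.68 and 9.28 CPM in old WT and 94.3, 104 and 87.8 CPM in young WT. Both old groups overlapped and lay far below young WT. No old WT library and 2 old KO libraries were above background. Its log2 fold change was -3.72 ± 1.16 in old WT against young WT (edgeR adjusted p = 0.00881) and -4.01 ± 1.17 in old KO against young WT (edgeR adjusted p = 0.0137). Without old KO replicate 2 the KO call was lost, at -3.62 (edgeR adjusted p = 0.0510). Between old KO and old WT it was -0.28 with total-count scaling and 1.77 under TMM, and was called under neither.

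Per kb, H2afx stood 73.1, 199 and 56.8 times above H2afj in old KO, 87.6, 155 and 0.661 times in old WT and 7.27, 6.72 and 12.3 times in young WT. Every old KO library had a higher ratio than every young library. The old WT value below 1 comes from replicate 3, where both genes were at background. H2afj was not above background in old KO replicate 2, with 25 counts, or in any old WT library, so these ratios are uncertain.

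H2afy had 208, 416 and 109 CPM in old KO, 10.9, 359 and 20.3 CPM in old WT and 555, 251 and 229 CPM in young WT. Its groups all overlapped, and the old WT mean rested on replicate 2, the sole old WT library above background. The log2 fold change in old WT against young WT was -1.41 ± 1.2 and was not called (edgeR adjusted p = 0.307). Without old WT replicate 2 it was -4.47 and called (edgeR adjusted p = 0.00542), and under TMM it was -5.35 and called (edgeR adjusted p = 0.0184).

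The 2 linker histone genes differed from each other. Hist1h1c had 122, 85.2 and 233 CPM in old KO, 5.28, 9.54 and 13.1 CPM in old WT and 920, 770 and 766 CPM in young WT. The 3 groups did not overlap, and no old WT library was above background. The log2 fold change in old WT against young WT was -6.46 ± 1.09 (edgeR adjusted p = 0.000697), the lowest of the 10 genes.

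H1f0 had 7.80, 2.66 and 41.1 CPM in old KO, 289, 141 and 686 CPM in old WT and 136, 162 and 206 CPM in young WT. It was above background in all 3 old WT libraries, where H3f3b was the one other gene of the 10 to be so, and in 2 of 3 old KO libraries. Old WT and young WT overlapped, and every old KO library lay below every library of both WT groups. Replicate 3 was the highest library in each old group.

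Because a ratio of genes in the same library does not depend on the scaling, Hist1h1c was set against H1f0. Per kb, Hist1h1c was 20.6, 42.2 and 7.46 times H1f0 in old KO, 0.0241, 0.0888 and 0.0251 times in old WT and 8.90, 6.25 and 4.90 times in young WT. Hist1h1c exceeded H1f0 in all old KO and young libraries and was below it in all old WT libraries. Per kb, H3f3b was 268, 854 and 57.2 times H1f0 in old KO, 1.30, 0.667 and 0.0736 times in old WT and 31.5, 25.3 and 20.1 times in young WT. H3f3b exceeded H1f0 in all old KO and young libraries and in old WT replicate 1, and was below it in old WT replicates 2 and 3. Both ratios use H1f0, and the Hist1h1c counts of old WT, 27, 30 and 45, were within background. In old KO replicate 2, where both ratios were highest, H1f0 had 30 counts and was not above background.

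**Figure D2:**
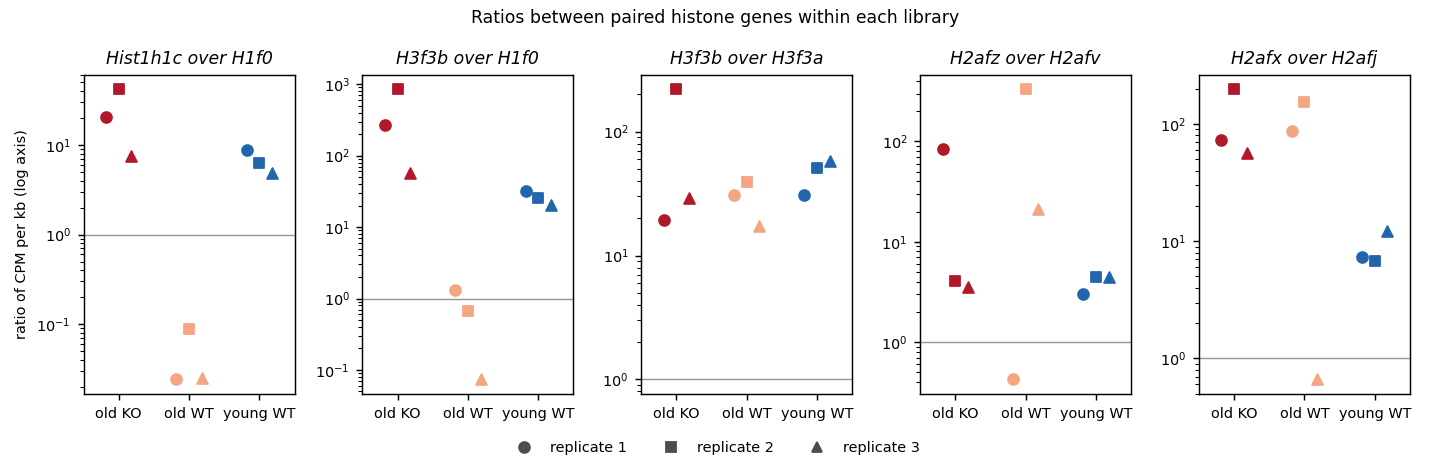
Ratio of CPM per kb between pairs of histone genes in each library, on log axes that differ between panels, with a grey line at equal levels. Symbols mark the replicate numbers. Hist1h1c over H1f0 lay above 1 in every old KO and young WT library and below 0.1 in every old WT library, while H3f3b over H3f3a overlapped in all groups.

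The promoters of Hist1h1c and H1f0 are shown because the ratio of their transcripts set old WT apart. The windows are chr13:23738557-23738856 for Hist1h1c and chr15:79027962-79028261 for H1f0, both on the plus strand of GRCm38.p6 in RefSeq. Capitals mark the CCAAT box, the H1 box known from linker histone promoters (letters AAACACA) and the GC box that binds SP1 (letters GGGCGG), searched on both strands.
Hist1h1c promoter: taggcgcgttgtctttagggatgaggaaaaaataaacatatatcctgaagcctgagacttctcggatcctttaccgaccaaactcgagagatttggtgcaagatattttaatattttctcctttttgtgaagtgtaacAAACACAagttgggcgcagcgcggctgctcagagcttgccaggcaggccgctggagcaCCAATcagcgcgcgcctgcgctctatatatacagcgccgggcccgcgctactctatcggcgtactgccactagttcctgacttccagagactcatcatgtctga
H1f0 promoter: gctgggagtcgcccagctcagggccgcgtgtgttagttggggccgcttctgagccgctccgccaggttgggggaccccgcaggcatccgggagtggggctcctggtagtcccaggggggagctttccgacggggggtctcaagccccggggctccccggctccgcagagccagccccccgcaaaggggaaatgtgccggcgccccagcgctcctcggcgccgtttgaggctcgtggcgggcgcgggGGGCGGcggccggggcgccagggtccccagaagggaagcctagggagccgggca

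The Hist1h1c window holds AAACACA at 112 bases and CCAAT at 54 bases before the start. The H1f0 window holds GGGCGG at 4 bases before the start and no other match. AAACACA occurs in 7.18% and GGGCGG in 35.7% of the 32851 windows. G and C make up 50.3% of the Hist1h1c window and 75.0% of that of H1f0. The RefSeq start of H1f0 lies upstream of the transcript in GENCODE M21, so this window covers sequence before the counted exons.

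Hist1h1c and H2afx are also the pair among the 10 whose transcripts carry the histone stem-loop, a 16-base hairpin bound by SLBP. It begins 24 bases after the coding end in Hist1h1c-201 and 46 bases after it in H2afx-201. In both, the annotated transcript runs on past it, for 840 and 822 bases. Capitals mark the arms of the stem and lower case the loop.
Hist1h1c: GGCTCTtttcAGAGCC
H2afx: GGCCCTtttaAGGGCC

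The pattern searched allowed either pyrimidine or either purine at the less conserved stem positions. In the loop it also allowed either pyrimidine after the opening T and any base at the end. It occurs in the transcripts of 40 of 56 other clustered core histone genes and of 70 of 22028 protein-coding genes, or 0.318%. Hist1h1c and H2afx differed in old WT, where H2afx was above background in 2 libraries and Hist1h1c in none.

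Hist1h2bc, a core H2B gene of the chromosome 13 cluster with a spliced annotated transcript and no stem-loop in it, had 504, 354 and 156 CPM in old KO, 49.7, 8.27 and 23.5 CPM in old WT and 427, 522 and 233 CPM in young WT. Old KO overlapped with young WT, and old WT lay below both. Its log2 fold change in old WT against young WT was -3.86 ± 1.07 (edgeR adjusted p = 0.00424), and -4.63 without old WT replicate 1. The reads of 12 other H2B genes that match it at 95% or more were 1.40%, 3.45% and 2.07% of the summed reads in old KO, 35.7%, 73.7% and 58.7% in old WT and 2.83%, 4.82% and 11.1% in young WT.

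In old WT against young WT, 6 of the 10 genes were called lower and none higher, where 3.48% of all tested genes were called lower and 68.4% higher. The 6 were H3f3a, H3f3b, H2afv, H2afj, Hist1h1c and Hist1h2bc. The median log2 fold change of the 10 was -3.69, against 5.30 over all tested genes, most of which were at background in old WT. H1f0 was the single gene above 0, at 1.15 ± 1.10, and was not called (edgeR adjusted p = 0.364); under TMM it was -3.03. TMM called 9 lower (18.4% of all tested genes), and with the background subtracted 1 was called (0.0695% of 8629 genes tested). CPM ranges were apart and lower in old WT for 7 genes, the 6 and H2afz (5.87% of all tested genes). Among 1432 genes of at least 50 CPM in every young library, 66.1% had such ranges, so the 7 are close to what well-expressed genes did.

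Between old KO and old WT, edgeR called none of the 10 genes, with 0.00614% of all tested genes called. At an unadjusted p under 0.05 there were 5, with 29.2% of all tested genes. They were H3f3b at 3.69 ± 0.78 (edgeR adjusted p = 0.146), Hist1h1c at 3.98 ± 0.97 (edgeR adjusted p = 0.147), Hist1h2bc at 3.64 ± 1.06 (edgeR adjusted p = 0.148), H3f3a at 3.51 ± 1.23 (edgeR adjusted p = 0.153) and H1f0 at -4.44 ± 1.25 (edgeR adjusted p = 0.148). DESeq2 called 5 with total-count scaling (12% of genes with an adjusted p) and 5 of 9 with its own size factors (23.8%), and TMM called H3f3b at 5.52 and Hist1h1c at 6.14 (0.457%). H3f3b was called, at 4.95, without old WT replicate 1 (edgeR adjusted p = 0.0124).

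CPM ranges were apart for 4 genes between old KO and old WT. H3f3b, Hist1h1c and Hist1h2bc were higher in every old KO library than in every old WT library, as were 1.91% of all tested genes and 25.8% of the 1432 well-expressed genes. H1f0 was lower in every old KO library, as were 48.8% of all tested genes and 15.2% of the 289 genes above background in every young and old WT library. The other 6 genes overlapped.

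In old KO against young WT, 3 of the 10 were called lower, where 3.93% of all tested genes were. They were H2afj, given above, H1f0 at -3.29 ± 1.18 (edgeR adjusted p = 0.0286) and Hist1h1c at -2.48 ± 0.91 (edgeR adjusted p = 0.0304). The calls of H1f0 and Hist1h1c were each lost when certain single libraries were left out. H1f0 was not called without old KO replicate 1 (-2.94) or 2 (-2.78), or without young WT replicate 1 (-3.42) or 3 (-3.12), and was -5.00 without old KO replicate 3. Hist1h1c was not called without old KO replicate 1 (-2.36) or 2 (-2.21), or without any 1 of the young WT libraries (-2.53 to -2.39). The remaining 7 genes had fold changes between -1.60 for H2afv and -0.22 for Hist1h2bc. H3f3b was at -0.90 ± 0.71 (edgeR adjusted p = 0.278) and was 1 of 4 genes called lower under TMM (5.84%), at -2.99. DESeq2 with its own size factors called all 9 genes lower that had an adjusted p (15%). CPM ranges were apart and lower in old KO for 7 genes (4.06% of all tested genes, 29% of the 1432 well-expressed ones).

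The 3 comparisons share libraries, so their values are given side by side. H3f3b was at -4.59 in old WT and -0.90 in old KO, both against young WT, and Hist1h2bc was at -3.86 and -0.22. Hist1h1c was at -6.46 and -2.48, H2afj at -3.72 and -4.01, and H1f0 at 1.15 and -3.29.

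**Figure D3:**
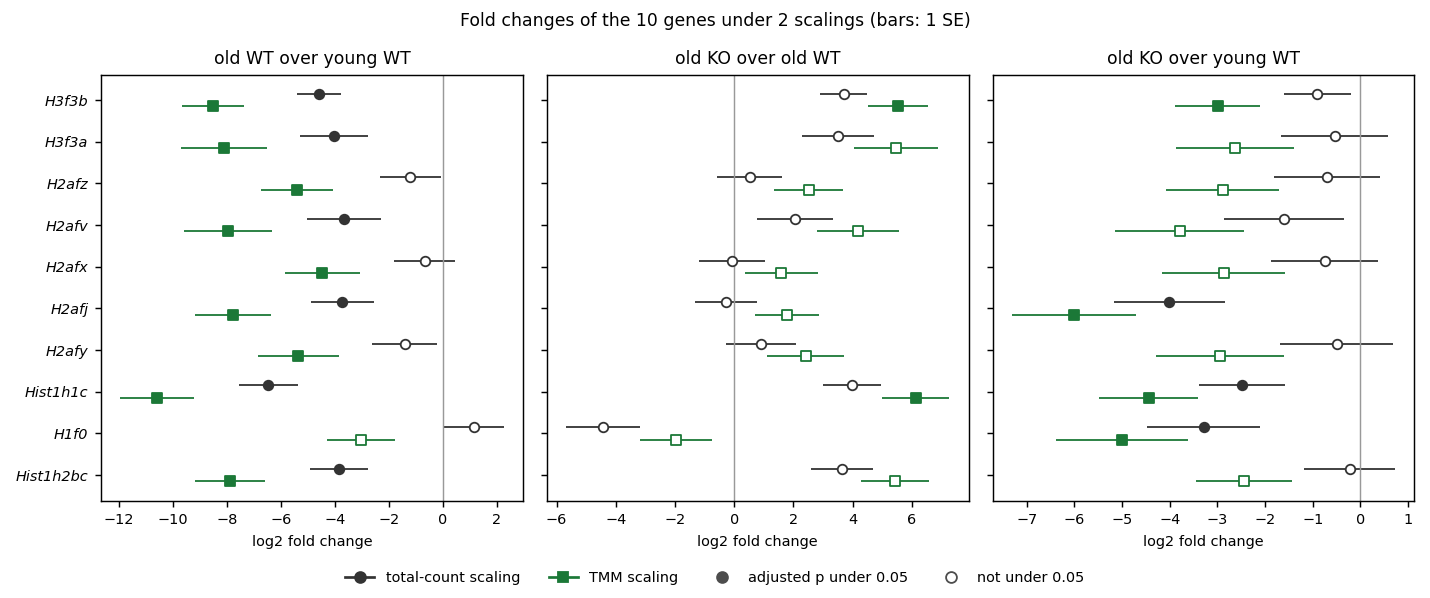
Log2 fold changes of the 10 histone genes in the 3 comparisons, with total-count scaling (black circles) and TMM scaling (green squares). Bars are 1 SE, and filled symbols have a Benjamini-Hochberg adjusted p under 0.05 in edgeR's quasi-likelihood test. TMM moves all genes of a comparison the same way, and H1f0 in old WT over young WT changes side from 1.15 to -3.03.

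Per kb, the order of the 10 genes was steep in young WT. H3f3b stood at 2034 ± 45.5 CPM per kb (SD, n = 3), apart from the next gene. Hist1h1c at 525 ± 56.2, H2afx at 448 ± 121, Hist1h2bc at 341 ± 128 and H2afz at 306 ± 34.6 overlapped in ranges from neighbour to neighbour. H1f0 at 81.8 and H2afv at 79.3 came next, apart from H2afz above and from H2afj below, and H2afj at 52.1, H2afy at 50.7 and H3f3a at 47.0 closed the order without a gap.

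In old KO H3f3b again led, at 1089 ± 63.9 CPM per kb (SD, n = 3), apart from the next. Hist1h2bc at 293, H2afx at 267, H2afz at 189 and Hist1h1c at 94.0 followed, and H1f0 at 8.36 and H2afj at 3.23 were last. No neighbours below H3f3b had ranges apart. In old WT no neighbours had ranges apart at all. H2afx at 280 ± 281, H1f0 at 181 ± 137, H2afz at 132 ± 131 and H3f3b at 84.3 ± 85.6 CPM per kb led there, and H3f3a at 2.83 was last.

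The make-up of the 10 genes shows the same. H3f3b gave 45.2%, 54.8% and 62.1% of their summed CPM per kb in old KO, 27.6%, 5.22% and 3.63% in old WT and 51.2%, 50.5% and 52.3% in young WT. Another gene led in old WT: H2afx with 41.1% and 64.1% in replicates 1 and 2, and H1f0 with 49.4% in replicate 3. H1f0 held 0.0642% to 1.09% in old KO and 1.63% to 2.6% in young WT.

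**Figure D4:**
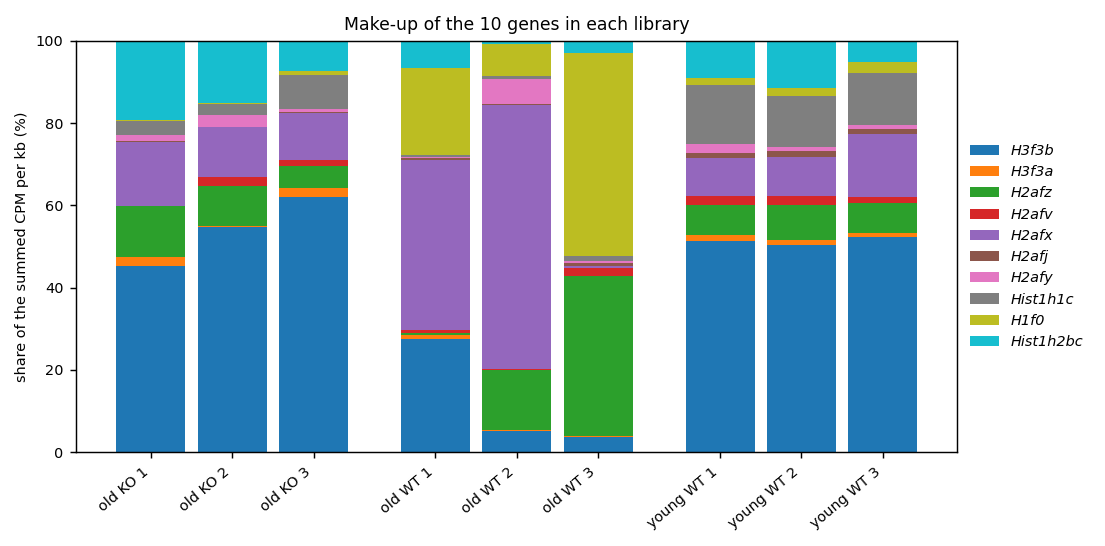
Share of each of the 10 histone genes in their summed CPM per kb, for each library (bars add to 100%). H3f3b makes up 45.2% to 62.1% in old KO and 50.5% to 52.3% in young WT, and 3.63% to 27.6% in old WT, where H2afx or H1f0 leads.

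The spread between libraries of a group differed as well. The highest library was a median of 3.52 times the lowest over the 10 genes in old KO, 6.72 times in old WT and 1.52 times in young WT. Over the 1432 well-expressed genes the medians were 5.49 in old KO, 3.67 in old WT and 1.85 in young WT. More than 10-fold apart were 3 of the 10 genes in old KO, 4 in old WT and none in young WT, against 38.5% of the 1432 genes in old KO, 30.4% in old WT and 0.0698% in young WT. Of the 1432 genes, 57.1% were above background in all 3 old KO libraries and 13.7% in all 3 old WT libraries, where H3f3b and H1f0 were such genes.

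Across the 9 libraries, log2(CPM + 1) of H3f3b correlated most among the 10 with Hist1h2bc (Pearson r = 0.927), H3f3a (0.893) and Hist1h1c (0.882). H1f0 correlated negatively with 8 of the other 9 genes and positively with H2afj (0.433). These are descriptions over 9 libraries in 3 groups that share depth and background. Among 2524 other genes of at least 50 CPM on average, the 5 most like H3f3b were Mcl1 (0.966), Id3, Hnrnpc, Slc25a5 and Klf2. Those most like H2afz were Rpl7 (0.978), Pcbp1, Rps26, Tubb5 and Srgn, and those most like Hist1h1c were Rps2 (0.978), 1110038B12Rik, Cct2, Klf6 and Rbm38. For H1f0 the closest were Ubr4 (0.878), Snrpb, Rnaseh2a, Nedd8 and Fubp1, a lower likeness than for the others.

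Other histone genes and the proteins that handle histones were counted in 9 lists. Their counts in old WT against young WT stand beside 68.4% of all tested genes called higher and 3.48% called lower. For old KO against young WT, 52.7% of all tested genes were called higher and 3.93% lower. Most tested genes were at background in old WT. Of the 1432 well-expressed genes, 66.1% had CPM ranges apart and lower in old WT than in young WT. With the background subtracted, no gene of the 9 lists was called in either comparison. In old WT against young WT, 3 of 12 tested genes among 19 further variant and linker histones were called higher and 3 lower. H1fx, a linker histone, fell to 0.489 ± 0.685 CPM in old WT, against 12.5 ± 5.04 CPM in young WT (log2 fold change -4.73 ± 1.47, edgeR adjusted p = 0.00857). Cenpa, the H3 variant of centromeres, averaged 16 ± 11.5 CPM in old WT and 130 ± 110 CPM in young WT (-3.03 ± 1.24, edgeR adjusted p = 0.0367). None of the 19 genes was above background in any old WT library, and 0 to 3 were in old KO and 7 to 8 in young WT libraries.

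Of 56 other clustered core histone genes 26 were tested, 4 called higher and 7 lower in old WT against young WT. Among these 7 was Hist1h3a, at -5.87 ± 1.59 (edgeR adjusted p = 0.00368). Their summed level was 78.7 to 111 CPM in old KO, 97.7 to 404 CPM in old WT and 350 to 542 CPM in young WT. Of the 404 CPM in old WT replicate 1, 341 CPM were of the single gene Hist1h3d, and the highest of the other two old WT libraries was at 160 CPM. Above background were 2 to 7 of the 56 genes in old KO, 0 to 2 in old WT and 18 to 23 in young WT libraries. Against young WT, old KO had 2 called higher and 9 lower, among them Hist1h3i at -6.92 ± 1.74 (edgeR adjusted p = 0.00970).

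With total-count scaling, factors that load the variants were mostly not called. Under TMM, 4 of 8 H3.3 and 6 of 12 H2A.Z factors were called lower in old WT against young WT (18.4% of all tested genes). Among 8 H3.3 loading factors, 1 was called higher and none lower in both comparisons with young WT. Atrx averaged 103 ± 85.8 CPM in old WT and 65.1 ± 82.5 CPM in young WT (0.66 ± 1.45, edgeR adjusted p = 0.701), and under TMM it was at -3.86 and not called. Cabin1 was at -1.49 ± 1.12 and not called (edgeR adjusted p = 0.246). Under TMM Cabin1 was at -5.75 and called (edgeR adjusted p = 0.0114). Among 12 H2A.Z loading and removal factors, 1 was called higher and 1 lower in old WT against young WT. They were Srcap, the motor of a complex that inserts H2A.Z, at 4.33 ± 1.21 (edgeR adjusted p = 0.00440), and Yeats4, a reader subunit of such complexes, at -4.22 ± 1.30 (edgeR adjusted p = 0.00822). Under TMM Srcap was at 0.53 and not called (edgeR adjusted p = 0.614), and it was above background in no old WT or young WT library. None of the H3.3 factors and 1 to 3 of the H2A.Z factors were above background in an old WT library.

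Of 5 H2A.X kinases and readers, 2 were called higher in old WT against young WT, Atm at 3.66 ± 1.21 (edgeR adjusted p = 0.0123) and Atr at 3.3 ± 1.26 (edgeR adjusted p = 0.0264). Under TMM they were at -0.33 and -0.42 and not called, and none of the 5 was above background in an old WT library. Of 8 histone mRNA processing factors 2 were called higher, Zfp473 and Lsm11, and none was above background in old WT. Under TMM Zfp473 was at 2.90 and called (edgeR adjusted p = 0.0212), and Lsm11 was at 1.08 and not called (edgeR adjusted p = 0.306). Slbp, the stem-loop binding protein, had 11.4, 11.3 and 88.3 CPM in old KO, 58.8, 6.99 and 25.5 CPM in old WT and 192, 40.4 and 111 CPM in young WT.

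Of 12 general and replication chaperones, 1 was called higher and 3 lower in old WT against young WT. Nap1l1, a chaperone of H2A and H2B, averaged 46.3 ± 41.9 CPM in old WT and 597 ± 331 CPM in young WT (-3.69 ± 1.07, edgeR adjusted p = 0.00560). Asf1b, an H3 and H4 chaperone of proliferating cells, was lower in both old groups, at -2.87 ± 1.18 in old WT (edgeR adjusted p = 0.0382) and -4.95 ± 1.30 in old KO against young WT (edgeR adjusted p = 0.0104).

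High mobility group genes, whose proteins bind nucleosomes and compete with H1, had 5 of 7 called lower and none higher in old WT against young WT, with a median of -3.94. The list also held Ptma, which encodes prothymosin alpha, a histone-binding protein outside this group, and which was called lower at -1.97 ± 0.81 (edgeR adjusted p = 0.0379). Hmgn1 averaged 11 ± 2.33 CPM in old WT and 321 ± 229 CPM in young WT (-4.87 ± 1.36, edgeR adjusted p = 0.00455). Of these 8 genes, Hmgb3 alone was called lower in old KO against young WT, at -4.91 ± 1.58 (edgeR adjusted p = 0.0187).

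S phase genes, in whose time canonical histones are made, had 7 of 17 called lower and none higher in old WT against young WT, and 8 lower and none higher in old KO against young WT. Pcna, the replication clamp, had 494, 868 and 527 CPM in old KO, 3.32, 8.27 and 21.8 CPM in old WT and 734, 739 and 382 CPM in young WT. Old KO overlapped with young WT and lay above old WT, with log2 fold changes of 5.83 ± 1.10 in old KO against old WT (edgeR adjusted p = 0.146; 7.87 under TMM, edgeR adjusted p = 0.0299) and -5.80 ± 1.09 in old WT against young WT (edgeR adjusted p = 0.000708). Over the 17 S phase genes, the median log2 fold change of old KO against old WT was -1.40, against -1.91 over all tested genes. Of the 17, 9 were above background in no old KO library and 16 in no old WT library. Mcm4, a subunit of the replicative helicase, averaged 4.05 ± 1.55 CPM in old KO and 135 ± 92.5 CPM in young WT (-5.06 ± 1.23, edgeR adjusted p = 0.00927). With total-count scaling, edgeR called none of the 108 tested genes of these lists between old KO and old WT. Of the 108, 24 had an unadjusted p under 0.05, as did 29.2% of all tested genes. Under TMM edgeR called 1 of the 108, Pcna.

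Marker lists of cell types were summed in each library. The 12 stem cell markers summed to 1758 to 3662 CPM in old KO, 624 to 1958 CPM in old WT and 2129 to 2594 CPM in young WT, and none was at 0. Old WT lay below young WT, and old KO overlapped with both. The 8 erythroid markers summed to 4.90 to 61.5 CPM in old KO, 14.3 to 21.2 CPM in old WT and 65.8 to 447 CPM in young WT, with Hba-a2 at 0 in all 3 old KO libraries. Alas2 went the other way, at 20.3 ± 32.8 CPM in old KO and 0.134 ± 0.0633 CPM in young WT (7.21 ± 1.75, edgeR adjusted p = 0.00927). It was above background in 1 old KO library. Of 7 erythroid markers tested there, 2 were called higher and 4 lower (52.7% and 3.93% of all tested genes). The 9 myeloid markers summed to 1137 to 1882 CPM in old KO, 686 to 1178 CPM in old WT and 706 to 1020 CPM in young WT, and old WT overlapped with both other groups. The 9 lymphoid markers summed to 13.6 to 168 CPM in old KO, 110 to 144 CPM in old WT and 11.7 to 83.0 CPM in young WT, with 0 to 1 of them above background in old KO, 0 to 1 in old WT and 2 to 4 in young WT libraries. The 5 megakaryocyte markers summed to 86.5 to 555 CPM in old KO, 37.7 to 393 CPM in old WT and 368 to 794 CPM in young WT, with all groups overlapping. The part of cell types in the histone differences was not tested.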

How the data were processed

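The deposited values are raw counts, a column for each library and a line for each gene. The submitters' processing notes list the mm10 genome and, with no role stated, HTSeq 0.10.0, edgeR 3.24.3, STAR 2.6.1d and Trim Galore 0.6.2. The sources used here do not give the annotation, the strand setting or the treatment of shared reads. Reads of a gene and of an opposite-strand gene over its exons therefore cannot be told apart. Such genes are H3f3aos and Gm17275 for H3f3a, Gm47071 for H2afy, Gm49544 for H1f0, Gm44335 for H2afx and Gm44364 for H2afj. Gm17275 held 460 counts in old KO replicate 3. Libraries were read as pairs of 150 bp after 13 PCR cycles. The 5 lines that name no gene (their largest part, counts outside genes, is given above) stayed out of library sizes and tests.

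The 10 genes, the lists and the tests were chosen with earlier results of these data known. Symbols (found for 52403 identifiers), positions and exon lengths come from GENCODE M21. The main test was edgeR 4.0.16's quasi-likelihood F test (R 4.3.3) on all 9 libraries, with filterByExpr, scaling by total counts in genes and Benjamini-Hochberg adjustment at 0.05. This test was also run on counts simulated from young WT levels in every group, with no added background. That setting differs from the old libraries, so it cannot show how the test behaves there. TMM was not the main scaling because genes at background dominate it. The background came from the exons of olfactory receptor genes (1134, without the densest 1%). Alternatives were TMM and upper-quartile factors, DESeq2 1.42.0, other filters, background subtraction, the 6 libraries compared, the replicate number as a block and each library left out. Replicate numbers are shared between groups, but same-numbered libraries did not deviate together.

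The text names all 10 genes, up to 3 called members of each list with the largest change and at least 10 CPM (of these a part is printed, picked after their values were seen), or up to 2 with the highest mean, and the 5 genes most like H3f3b, H2afz and Hist1h1c; the genes most like H1f0, and Slbp, were added after values were seen. Near copies were found with blastn 2.17.0. Promoters are from RefSeq (GRCm38.p6).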

Additional observations from a re-analysis of the deposited data

How the results depend on the processing

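The count of called genes among the 10 moved as follows. Percentages in brackets are the share of all tested genes called in either direction under the same setting, where at hand. A count with no percentage beside it cannot be set against all genes. In old WT against young WT it was 6 (71.9%), 5 to 6 when 1 library was left out, and 1 with the background subtracted (0.185%). In old KO against old WT it was 0 (0.00614%), against 2 with TMM factors (0.457%). DESeq2 called 5 with total-count scaling (12%) and 5 with its own size factors (23.8%). With the 6 compared libraries alone the count was 4, and 0 to 1 when 1 library was left out. The share of all genes is not given for these last fits. In old KO against young WT it was 3 (56.6%), against 9 with DESeq2's own size factors (30.7%). It was 0 with the background subtracted (0.0464%) and 0 to 3 when 1 library was left out. For the other histone and chromatin lists the count was 41 in old WT against young WT (71.9%), 75 with TMM (37%) and 79 with DESeq2's own factors (56.5%). It was 74 with upper-quartile factors, 18 with a stricter filter and 0 with the background subtracted (0.185%). Between old KO and old WT it was 0 (0.00614%), and 24 of 108 had an unadjusted p under 0.05 (29.2%). It was 1 with TMM (0.457%), and 20 and 14 with DESeq2 under its own and total-count factors (23.8% and 12%). With no filter it was 1, and with the 6 compared libraries 14. Old KO against young WT had 33 (56.6%), 65 with DESeq2's own factors (30.7%), 15 with the stricter filter and 0 with the background subtracted (0.0464%). Leaving out 1 library gave 28 to 49, 0 to 0 and 28 to 39 in these comparisons. A stricter filter and background subtraction test fewer genes; the cause of the other shifts was not tested.

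Of the fold changes, H1f0 in old WT against young WT was -3.03, -2.73 and -2.90 under TMM, upper-quartile and DESeq2's own factors. In old KO against old WT, H2afx was 1.59, 1.47 and 1.2 under these and H2afj 1.77, 1.62 and 1.37. Leaving out a library in that comparison gave -0.059 to 1.52 for H2afz (lowest without old WT replicate 1), -0.65 to 0.96 for H2afx and -0.68 to 0.11 for H2afj (above 0 without old KO replicate 2). Background subtraction gave -0.0068 for H2afz and 0.22 for H2afj. In old KO against young WT, leaving out a library gave -1.12 to 0.025 for H2afy and -0.63 to 0.12 for Hist1h2bc. With the replicate number as a block, H2afx in old KO against old WT was 0.32. Under that block, Hist1h1c in old KO against young WT was -2.62 and lost its call (edgeR adjusted p = 0.0517). The block gave counts of 6, 0 and 2 among the 10, with no share of all genes at hand. Replicate numbers did not pair the libraries, with correlations of -0.0312 to 0.0239 between same-numbered ones. Counts of 2 to 106 in old WT, all within background, limit what could be detected for H3f3a, H2afv, H2afj and Hist1h1c there.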
